A study of Mus musculus with 9 samples.

Results

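AP-1 is a dimeric transcription factor built from proteins of the Fos and Jun families. Of its mouse genes, the 6 genes Fos, Fosb, Fosl2, Jun, Junb and Jund were followed here across 9 libraries of sorted hippocampal cells. Fosl1, also of the Fos family, had too few counts to be tested. All 6 genes were found by symbol among the 55421 genes of the count table, and all 6 passed the filter on low counts. The 3 groups were injured mice with a conditional knockout of Tmsb4x (CKO mTBI), injured wild-type mice (WT mTBI) and wild-type mice after a sham operation (WT sham), with 3 libraries each, labelled as 3 mice each. The injury was a mild traumatic brain injury (mTBI) by a controlled cortical impact, which the sham mice did not receive. Mice of all groups carried tdTomato, a red fluorescent protein expressed in neurons, on which live cells were sorted after 15 minutes of trypsin digestion at 37 °C. The labels give neither the Cre driver and deleted part of Tmsb4x, nor age, sex or the time between injury and collection, and no group holds knockout mice without injury.

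Fos proteins bind DNA only after pairing with a Jun protein through a leucine zipper, while Jun proteins can also pair with each other. Fos, Fosb and Junb are immediate early genes, whose transcripts appear in neurons within minutes of synaptic activity and are soon degraded. Fos is a standard marker of recently active hippocampal neurons, and Jun is phosphorylated by the JNK kinases after axon injury and stress. Jund and Fosl2 are transcribed more steadily in many cells.

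No member passed the test in any of the 3 comparisons (edgeR quasi-likelihood test, adjusted p under 0.05 over 20032 genes). The values of Fos, Junb and Jund in WT mTBI lay above those in WT sham in every library, by 2.48-fold, 1.44-fold and 1.34-fold, with replicate 1 far above the others. Of all genes tested, 12.4% were separated in this way. In CKO mTBI the means of these 3 genes lay between those of WT mTBI and of the libraries labelled WT sham, whose Tmsb4x was at the level of the knockout, and Fos was 1.92-fold lower than in WT mTBI. Jun, the member with the most counts, averaged 94.1 CPM (counts scaled to library size) in CKO mTBI, 93.0 CPM in WT mTBI and 94.3 CPM in WT sham.

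The libraries held 36452443 to 39590872 counts. Tmsb4x, the deleted gene, averaged 2.46 ± 0.549 CPM (SD, n = 3) in CKO mTBI, 583 ± 302 CPM in WT mTBI and 2.21 ± 0.523 CPM in WT sham, so the libraries labelled WT sham stood at the level of the knockout (log2 0.15 for CKO mTBI minus WT sham, adjusted p = 0.999 in edgeR). They do not show the level of this gene seen in WT mTBI, and every direction against them below rests on their label. The sham libraries also varied less among themselves, with a biological coefficient of variation of 3.26%, against 18.7% in CKO mTBI and 19.6% in WT mTBI. If they were technical repeats of 1 pool rather than 3 mice, the p-values below would be too small. WT mTBI replicate 1 stood apart on the first principal component. Of the Y-linked gene Ddx3y, WT mTBI replicate 3 had 0.0498 CPM and the other 8 libraries 49.7 to 58.7 CPM, and Xist was at 835 CPM in that replicate, so it came from a female and the others from males. Markers of neurons summed to 9037 to 10502 CPM per library, but markers of oligodendrocytes also summed to 5017 to 9194 CPM and those of astrocytes to 3243 to 4436 CPM. The 8 choroid plexus markers summed to 56.7, 3706 and 2967 CPM in CKO mTBI replicates 1, 2 and 3, to 3188 to 4412 CPM in WT mTBI and to 47.9 to 49.8 CPM in WT sham. The part of the sorted cells' makeup in the results below was not tested, and in these bulk libraries fewer cells of a type and less RNA per cell cannot be told apart.

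The members lie on 5 chromosomes of mouse genome GRCm38, all protein-coding. Fos (ENSMUSG00000021250) spans 85473890 to 85477273 of chromosome 12 on the plus strand, Fosb (ENSMUSG00000003545) 19302696 to 19310051 of chromosome 7 on the minus strand and Fosl2 (ENSMUSG00000029135) 32135801 to 32157842 of chromosome 5 on the plus strand. Jun (ENSMUSG00000052684) spans 95049034 to 95052222 of chromosome 4 on the minus strand. Both Junb (ENSMUSG00000052837, 84974484 to 84978718, minus strand) and Jund (ENSMUSG00000071076, 70698949 to 70700616, plus strand) lie on chromosome 8. Strand was not used in counting, and reads that fit 2 genes were left out by the counter's defaults. This touches Jund most, since 877 of its 1668 exon bases are shared with the antisense gene Gm11175, which had 0 counts in all 9 libraries. Junb shares 173 exon bases with Prdx2, a peroxiredoxin gene of 104 to 180 CPM, and Jun 232 bases with its antisense RNA Junos, at 1.03 to 1.87 CPM.

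Promoters of 4 members are printed. Fos and Junb had the largest differences between WT mTBI and WT sham. Fosb carries the same short motif with no such difference, and the group means of Jun were level. The windows run from 250 bases before to 50 bases after the RefSeq start (GRCm38.p6), 5′ to 3′ on the strand of the gene, and capitals mark matches to the motifs searched.
Fos (chr12:85473640-85473939, plus strand): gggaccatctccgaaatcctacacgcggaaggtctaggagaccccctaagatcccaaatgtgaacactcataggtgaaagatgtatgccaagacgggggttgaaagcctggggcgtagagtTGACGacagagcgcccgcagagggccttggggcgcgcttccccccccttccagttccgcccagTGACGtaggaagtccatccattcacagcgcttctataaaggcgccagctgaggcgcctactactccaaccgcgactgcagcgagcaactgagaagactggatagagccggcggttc
Fosb (chr7:19309996-19310295, minus strand): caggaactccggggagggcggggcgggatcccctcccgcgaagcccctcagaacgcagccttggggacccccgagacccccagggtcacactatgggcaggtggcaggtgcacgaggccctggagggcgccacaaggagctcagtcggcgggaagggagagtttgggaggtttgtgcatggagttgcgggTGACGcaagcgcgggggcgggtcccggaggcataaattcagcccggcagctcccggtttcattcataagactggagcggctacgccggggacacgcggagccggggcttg
Junb (chr8:84978699-84978998, minus strand): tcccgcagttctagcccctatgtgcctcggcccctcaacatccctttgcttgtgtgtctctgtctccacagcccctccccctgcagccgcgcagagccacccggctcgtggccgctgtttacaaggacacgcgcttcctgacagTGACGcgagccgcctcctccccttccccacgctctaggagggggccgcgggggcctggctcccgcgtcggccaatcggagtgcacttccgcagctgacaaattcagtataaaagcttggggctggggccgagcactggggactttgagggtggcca
Jun (chr4:95052173-95052472, minus strand): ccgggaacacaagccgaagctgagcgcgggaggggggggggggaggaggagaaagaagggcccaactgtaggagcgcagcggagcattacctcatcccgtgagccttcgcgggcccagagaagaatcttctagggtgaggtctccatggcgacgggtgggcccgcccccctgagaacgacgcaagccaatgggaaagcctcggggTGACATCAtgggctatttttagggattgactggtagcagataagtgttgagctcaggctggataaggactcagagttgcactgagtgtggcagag
The motifs, read on both strands, were TGACG, the core of the site bound by the factor CREB, its full form TGACGTCA, the AP-1 site TGANTCA, its variant TGACATCA and the CArG box of SRF (serum response factor). TGACG began at positions -129 and -66 in Fos, at -60 in Fosb and at -106 in Junb, counted from the start at 1, and was in 20.8% of the 32851 mouse windows of this length. TGACATCA began at -45 in Jun and was in 3.62% of windows. TGACGTCA, TGANTCA and the CArG box, in 1.79%, 7.81% and 1.63% of all windows, had no match in the windows of the 6 members. Bases farther than 250 before the start were not searched, so a match there would not be seen. No motif matched in Fosl2 or Jund, whose RefSeq window lies upstream of the GENCODE gene.

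Levels of different genes were compared per length, as CPM per kb of exon. Jun, the classical partner of Fos, was the highest member in every library, at 29.5 ± 1.99 CPM per kb in CKO mTBI, 29.2 ± 4.72 in WT mTBI and 29.6 ± 0.647 in WT sham (SD, n = 3 each). Junb, which forms weaker activators than Jun, had 14.5 ± 1.56 CPM per kb in CKO mTBI, 19.0 ± 5.87 in WT mTBI and 13.2 ± 0.149 in WT sham. Jund, a Jun protein also known to restrain growth, had 13.7 ± 1.59 CPM per kb in CKO mTBI, 17.1 ± 5.41 in WT mTBI and 12.8 ± 0.432 in WT sham. The ranges of Junb and Jund overlapped within each group on this scale. Over the exon bases of Jund that no other gene shares, its level was 28.8 ± 3.35 CPM per kb in CKO mTBI, 36.02 ± 11.4 in WT mTBI and 26.9 ± 0.910 in WT sham, against 31.8 ± 2.15, 31.5 ± 5.09 and 31.9 ± 0.698 CPM per kb of Jun on the same scale in the same groups. Junb had 15.7 ± 1.68 CPM per kb of unshared exon in CKO mTBI, 20.6 ± 6.35 in WT mTBI and 14.3 ± 0.161 in WT sham, and in each group all its libraries were below those of Jund. On this scale the mean of Jund was above that of Jun in WT mTBI and below it in the other groups.

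The Fos family was lower per length. Fosl2, which encodes Fra-2, had 5.17 ± 0.710 CPM per kb in CKO mTBI, 5.65 ± 0.472 in WT mTBI and 5.93 ± 0.360 in WT sham (SD, n = 3 each). Fos had 2.17 ± 0.742 CPM per kb in CKO mTBI, 4.17 ± 2.31 in WT mTBI and 1.68 ± 0.0697 in WT sham. Fosb, whose stable splice product ΔFosB builds up in neurons under repeated activity, was lowest, at 0.840 ± 0.0910 CPM per kb in CKO mTBI, 0.893 ± 0.166 in WT mTBI and 0.974 ± 0.0580 in WT sham. Within each group the ranges of Fos and Fosb did not overlap on this scale. It divides by all annotated exon bases, 6243 for Fosb with 5 transcripts and 9680 for Fosl2 with 3, and a transcript can be shorter. In CPM, Fosb lay above Fos in WT sham, at 5.68 to 6.39 against 3.77 to 4.08 CPM. Their CPM ranges overlapped in CKO mTBI and in WT mTBI. The mean CPM of Fosl2 was above those of Junb and Jund in each group. Fos exceeded Fosl2 per length only in WT mTBI replicate 1, at 6.49 against 5.10 CPM per kb, and was below it in the other 8 libraries. The remaining gene of the family, Fosl1, had at most 8 counts in a library and did not pass the filter, with 1163 of its 2033 exon bases shared with Ccdc85b.

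**Figure D1:**
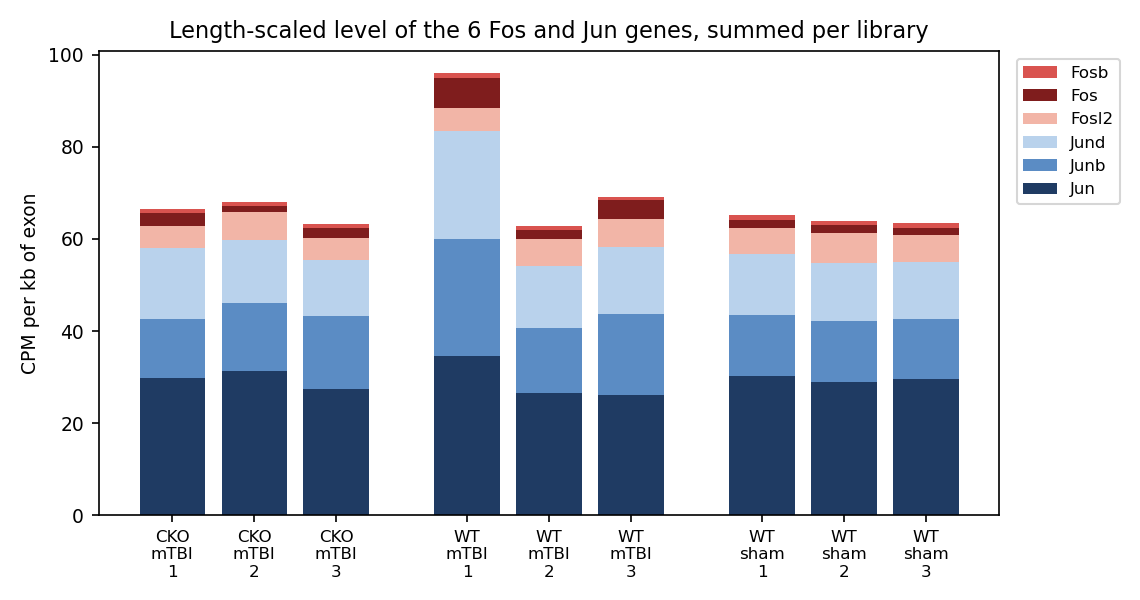
Stacked bars give the level per kb of exon of the 6 Fos and Jun genes in each of the 9 libraries (vertical axis, CPM per kb of exon), with the groups side by side. WT mTBI replicate 1 reached 96.1 CPM per kb and the other 8 libraries 62.7 to 69.1 CPM per kb, and Jun genes made up 84.3% to 88.0% of each bar. All exon bases were used, also those of Jun, Junb and Jund that other genes share.

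Summed per length, the 6 genes came to 65.9 ± 2.40 CPM per kb in CKO mTBI, 76.0 ± 17.7 in WT mTBI and 64.2 ± 0.888 in WT sham (SD, n = 3 each). The Fos family took 12.4% ± 0.451 of this sum in CKO mTBI, 14.2% ± 1.31 in WT mTBI and 13.4% ± 0.653 in WT sham. The sum uses all exon bases, also those that Jun, Junb and Jund share with other genes. Per unshared exon these 3 genes, and Jund most, stand higher, as given above. On that scale the sum would be larger and the Fos family share smaller, and both scales rest on annotated exon length. The share of Fos alone was 4.31%, 2.05% and 3.57% in CKO mTBI, 6.76%, 2.99% and 5.97% in WT mTBI and 2.66%, 2.68% and 2.53% in WT sham. The stacked bars by library show that the extra length-scaled level in WT mTBI replicate 1 was spread over Fos, Junb, Jund and Jun, while its Fosl2 segment was below that of WT mTBI replicates 2 and 3.

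**Figure D2:**
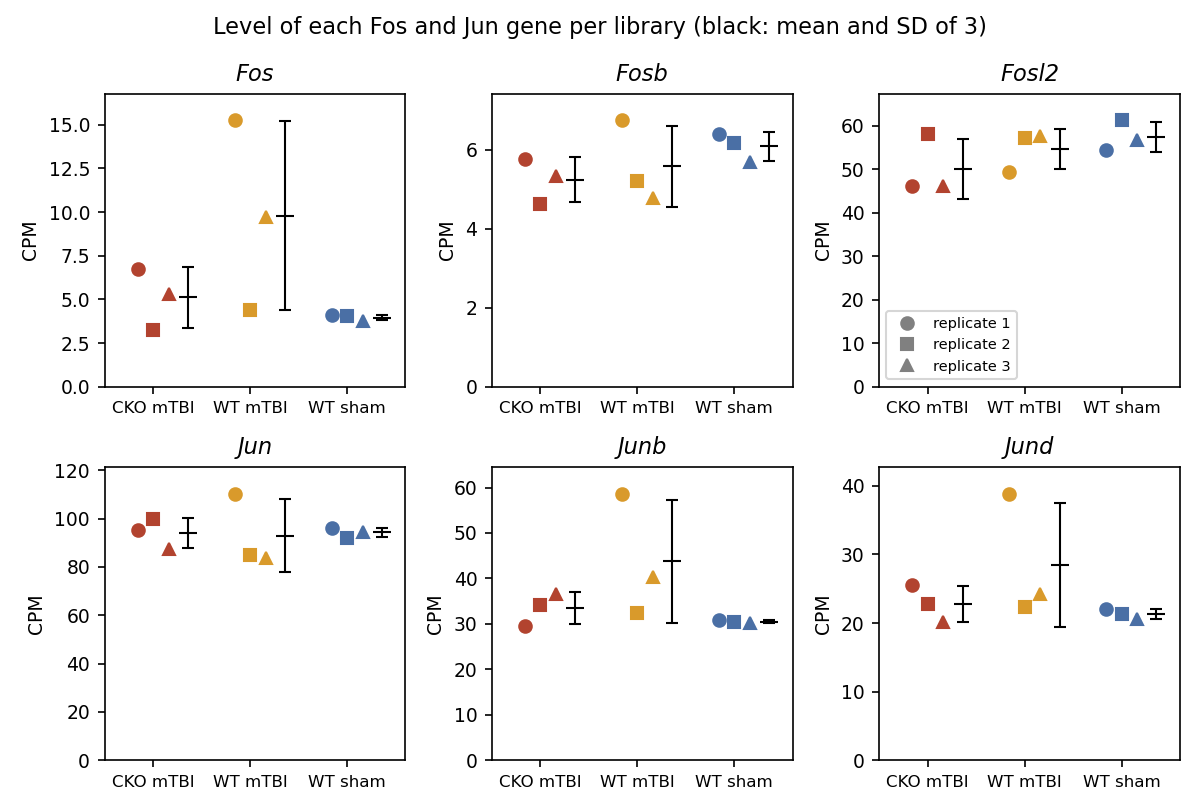
Each panel plots the CPM of a gene (vertical axis, from 0) in the 3 libraries of CKO mTBI, WT mTBI and WT sham, with a marker shape per replicate number and the mean and SD in black. For Fos, Junb and Jund all 3 WT mTBI points lie above the WT sham points, and WT mTBI replicate 1 is the highest of the 9 libraries for every gene but Fosl2.

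Injured wild-type mice were set against the libraries labelled WT sham, the comparison with the largest member differences. Fos had 15.3, 4.41 and 9.71 CPM in WT mTBI replicates 1, 2 and 3, against 4.08, 4.02 and 3.77 CPM in WT sham. Every WT mTBI library was above every sham library, replicate 2 by little. The log2 change was 1.31 (SE 0.38, 95% interval 0.48 to 2.14), at an unadjusted p of 0.00524 and an adjusted p of 0.175 in edgeR. Without WT mTBI replicate 1 it was log2 0.84 (adjusted p = 0.341). Without replicate 2 it was 1.65, and Fos then passed at adjusted p = 0.0475 in edgeR, as it did in DESeq2 (log2 1.30, adjusted p = 0.0151).

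Junb had 58.6, 32.3 and 40.4 CPM in WT mTBI, against 30.8, 30.5 and 30.1 CPM in WT sham. The groups did not overlap, and replicate 1 was again the highest. The log2 change was 0.52 (SE 0.18, 95% interval 0.14 to 0.91), at an adjusted p of 0.243 in edgeR, and without replicate 1 it was log2 0.26 (adjusted p = 0.374). Jund had 38.9, 22.4 and 24.2 CPM in WT mTBI, against 22.0, 21.3 and 20.6 CPM in WT sham. Its groups did not overlap either, but replicate 2 exceeded the highest sham library by less than the range of the sham libraries. The log2 change was 0.42 (SE 0.18, adjusted p = 0.35), and without replicate 1 it was log2 0.13 (adjusted p = 0.662).

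The other members overlapped between WT mTBI and WT sham. Jun had 110, 85.0 and 83.6 CPM in WT mTBI, against 96.2, 92.1 and 94.5 CPM in WT sham, with replicate 1 above and the others below all sham libraries. Its log2 change of -0.02 had a 95% interval of -0.25 to 0.21. Without replicate 1 the Jun change was log2 -0.16 (adjusted p = 0.314 in edgeR). Fosb had 6.75, 5.20 and 4.78 CPM in WT mTBI, against 6.39, 6.17 and 5.68 CPM in WT sham (log2 -0.12, 95% interval -0.48 to 0.23). Fosl2 had 49.4, 57.1 and 57.5 CPM in WT mTBI, against 54.4, 61.2 and 56.6 CPM in WT sham (log2 -0.07, 95% interval -0.30 to 0.16). The intervals of all 3 genes include 0 and are widest for Fosb.

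Among all 20032 genes, 0.509% passed in this comparison, and 12.4% had all WT mTBI libraries above all sham libraries. This condition was met by 3 of the 6 members. No member had all WT mTBI libraries below all sham libraries, which 11.5% of genes did. An unadjusted p under 0.05 with a positive change was found for 7.45% of genes and for the same 3 members. The median log2 change was 0.20 over the members and 0.0176 over all genes tested. In WT mTBI replicate 1, levels over the sham mean also followed exon length across 20014 genes, with a rank correlation of -0.27, against -0.078 to 0.0341 in the other 8 libraries. Genes with under 2500 exon bases stood at a median of log2 0.207 over the sham mean there, and genes with over 5000 at -0.134. Jund, Junb and Fos have 1668, 2301 and 2352 exon bases, Jun 3189, Fosb 6243 and Fosl2 9680. In that library Fos stood at log2 1.95 over the sham mean, Junb at 0.95 and Jund at 0.87, each above the median of genes under 2500 bases. The spread within that class was not taken, so a value above its median does not set a gene apart. The part of this length trend in the results was not tested. In replicate 3, where the same length class had a median of log2 0.0183, Fos stood at 1.30, Junb at 0.41 and Jund at 0.19. In replicate 2, with a median of log2 0.00779 in that class, Fos stood at 0.16, Junb at 0.08 and Jund at 0.07.

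**Figure D3:**
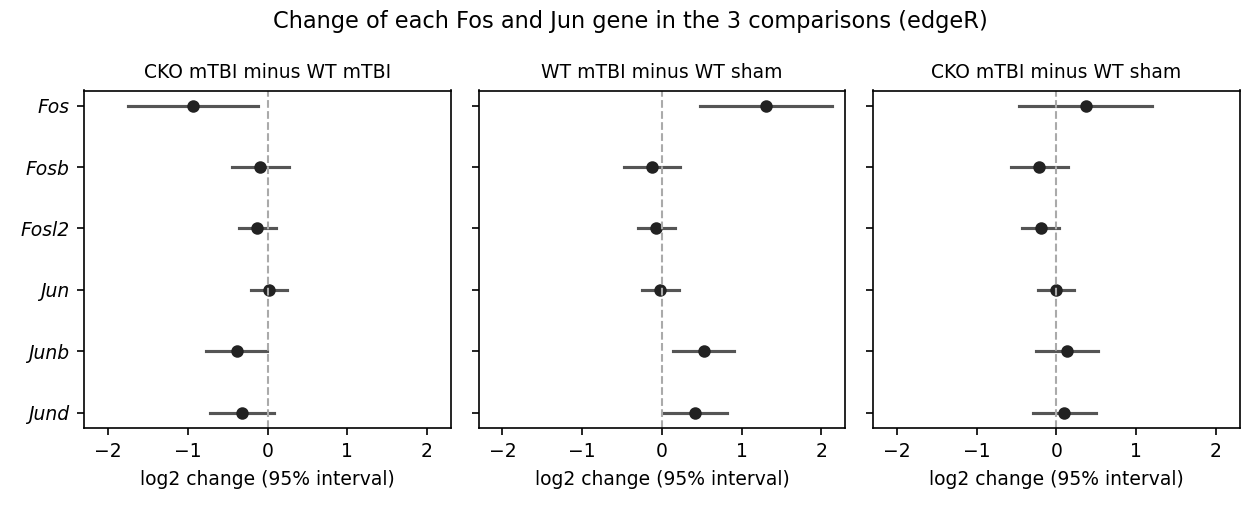
Points give the log2 change of each member with its 95% interval (horizontal axis) in CKO mTBI minus WT mTBI, WT mTBI minus WT sham and CKO mTBI minus WT sham. Fos has the widest intervals, and those of Fos and Junb leave out 0 in the comparisons with WT mTBI before adjustment over all genes, as does that of Jund in WT mTBI minus WT sham. All intervals come from the fit of 9 libraries. With only the 6 libraries of CKO mTBI and WT mTBI, the unadjusted p of Fos and Junb in edgeR was above 0.05.

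The knockout was set against wild type after injury, a comparison that shares the WT mTBI libraries with the one above. Fos had 6.75, 3.27 and 5.32 CPM in CKO mTBI, against 15.3, 4.41 and 9.71 CPM in WT mTBI. The groups overlapped, since 2 knockout libraries lay above WT mTBI replicate 2. The log2 change was -0.94 (SE 0.37, 95% interval -1.76 to -0.12), at an unadjusted p of 0.0281 and an adjusted p of 0.732 in edgeR, and without WT mTBI replicate 1 it was log2 -0.47 (adjusted p = 0.867). Junb had 29.5, 34.3 and 36.6 CPM in CKO mTBI, against 58.6, 32.3 and 40.4 CPM in WT mTBI, where again only replicate 2 fell among the knockout values. Its log2 change was -0.39 (SE 0.17, 95% interval -0.77 to -0.0036, adjusted p = 0.732), and without WT mTBI replicate 1 it was log2 -0.12 (adjusted p = 0.903). These intervals also draw on the spread of the sham libraries. With only the 6 libraries compared, the unadjusted p in edgeR was 0.051 for Fos and 0.0812 for Junb. Jund had 25.5, 22.7 and 20.2 CPM in CKO mTBI, against 38.9, 22.4 and 24.2 CPM in WT mTBI (log2 -0.32, SE 0.18, adjusted p = 0.739). Without WT mTBI replicate 1 the Jund change was log2 -0.03 (adjusted p = 0.979).

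Jun had 95.1, 99.8 and 87.3 CPM in CKO mTBI, against 110, 85.0 and 83.6 CPM in WT mTBI, with a log2 change of 0.02 (95% interval -0.21 to 0.25). Without WT mTBI replicate 1 the Jun change was log2 0.16 (adjusted p = 0.797 in edgeR). Fosb had 5.75, 4.63 and 5.34 CPM in CKO mTBI, against 6.75, 5.20 and 4.78 CPM in WT mTBI (log2 -0.09, 95% interval -0.45 to 0.27). Fosl2 had 46.1, 58.0 and 46.1 CPM in CKO mTBI, against 49.4, 57.1 and 57.5 CPM in WT mTBI (log2 -0.13, 95% interval -0.36 to 0.10). In both groups these 3 genes overlapped. Only 0.015% of the genes tested passed in this comparison and none of the members, of which 5 had negative changes, with a median of log2 -0.22 against 0.00124 over all genes. An unadjusted p under 0.05 with a negative change was found for Fos and Junb and for 3.35% of all genes. No member had non-overlapping groups, while 4.86% of genes had all knockout libraries above and 4.86% all below the wild-type ones.

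The injured knockout libraries were also set against those labelled WT sham, which both comparisons with sham share. Fos averaged 5.11 ± 1.74 CPM in CKO mTBI and 3.96 ± 0.164 CPM in WT sham (SD, n = 3 each, log2 0.37, SE 0.38, adjusted p = 0.999 in edgeR). The change was log2 0.12 without CKO mTBI replicate 1 and 0.60 without replicate 2. Replicates 1 and 3 were above all sham libraries and replicate 2 below them. Junb averaged 33.5 ± 3.58 CPM in CKO mTBI and 30.4 ± 0.344 CPM in WT sham (log2 0.14), and Jund 22.8 ± 2.65 CPM and 21.3 ± 0.720 CPM in the same order (log2 0.10). Fosl2 averaged 50.1 ± 6.88 CPM in CKO mTBI and 57.4 ± 3.48 CPM in WT sham (log2 -0.20, 95% interval -0.43 to 0.03). Fosb averaged 5.24 ± 0.568 CPM in CKO mTBI and 6.08 ± 0.362 CPM in WT sham, and Jun 94.1 ± 6.35 CPM and 94.3 ± 2.06 CPM in that order. None of the 6 passed, against 0.0699% of all genes, and 3 had positive changes, against 52.6% of all genes. No member had non-overlapping groups, while 8.75% of genes had all CKO mTBI libraries above and 8.4% all below those of WT sham. CKO mTBI replicate 1, at 56.7 CPM of choroid plexus markers, had the most Fos of the knockout libraries and replicate 2, at 3706 CPM, the least. Junb was lowest in replicate 1 of these libraries. WT mTBI, at 3188 to 4412 CPM of these markers, had the highest mean of Fos among the groups. The part of these markers in the differences was not tested.

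No pair of members passed a test of correlation across libraries after adjustment. Over the 9 libraries, log2 CPM of Fos and Jund had a Pearson r of 0.843 (exact permutation p = 0.008, adjusted p = 0.0842 over 15 pairs) and a Spearman rho of 0.567 (exact p = 0.121, adjusted p = 0.727). For Fos and Junb, r was 0.834 (exact permutation p = 0.0112, adjusted p = 0.0842) and rho 0.483 (exact p = 0.194, adjusted p = 0.727). Without WT mTBI replicates 1 and 3, the libraries farthest from the median of Fos, r was 0.46 for Fos and Jund and -0.106 for Fos and Junb, a step that also narrows the range of Fos. The relation of Fos and Junb thus rests on those libraries. Other pairs moved the other way when the 2 libraries farthest from the median of the gene named first were left out: r went to 0.878 for Fosb and Jun, with 0.558 over all 9 libraries, to -0.849 for Fos and Fosl2, with -0.448, and to -0.837 for Fosl2 and Jund, with -0.334. No other pair had an adjusted p under 0.218, and r ran from -0.448 for Fos and Fosl2 to 0.831 for Junb and Jund. For Junb and Jund, rho was 0.283, and r was -0.415 without WT mTBI replicates 1 and 3, so their relation rests on those libraries too.

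Genes with the pattern most like a member were taken as the 3 of highest Pearson r over the 9 libraries among 14338 genes, a number at which high values of r arise without any relation. For Junb they were Nipsnap3b (r = 0.989), the activity-regulated synaptic gene Arc (0.987) and the mitochondrial ribosomal gene Mrps28 (0.986). For Fos they were Pgls (0.987), an enzyme of the pentose phosphate pathway, the exosome subunit gene Exosc1 (0.981) and Ppp1r14a (0.979), an inhibitor of myosin phosphatase. For Jund they were Uqcc2 (0.981), Retreg2 (0.977) and Arl1 (0.977). Jun was nearest to Rufy3 (0.98), the CaMKII inhibitor gene Camk2n1 (0.977) and Yars (0.968), Fosb to Gcsh (0.952), Lmo3 (0.95) and Lsm5 (0.947), and Fosl2 to Spred1 (0.956), the RNA methyltransferase gene Mettl3 (0.942) and Slc7a7 (0.931).

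Of 32 other rapid primary response genes, which neurons transcribe beside Fos after activity, none passed in WT mTBI against WT sham, with 23 positive changes (53% over all genes) and a median of log2 0.29. Arc had 147, 68.5 and 102 CPM in WT mTBI, against 60.8, 59.4 and 61.7 CPM in WT sham (log2 0.80, adjusted p = 0.135 in edgeR). Within WT mTBI, replicate 1 was highest and replicate 2 lowest, as for Fos and Junb. The zinc finger genes Egr1 and Egr2 had log2 changes of 0.46 (adjusted p = 0.429) and 1.84 (adjusted p = 0.196). In CKO mTBI against WT mTBI none passed either, 9 of the 32 changes were positive (50.2% over all genes) and the median was log2 -0.13. Arc had 60.1, 69.9 and 79.3 CPM in CKO mTBI (log2 -0.60 against WT mTBI, adjusted p = 0.732). Sik1 and Klf2, at log2 0.62 and 0.86 in WT mTBI against WT sham, were at -0.05 and 0.13 in CKO mTBI against WT mTBI. Against WT sham, CKO mTBI had log2 0.56 for Sik1 and 1.00 for Klf2 (adjusted p = 0.171 and 0.169 in edgeR). Of the 32 changes in that comparison, 22 were positive (52.6% over all genes), with a median of log2 0.20.

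**Figure D4:**
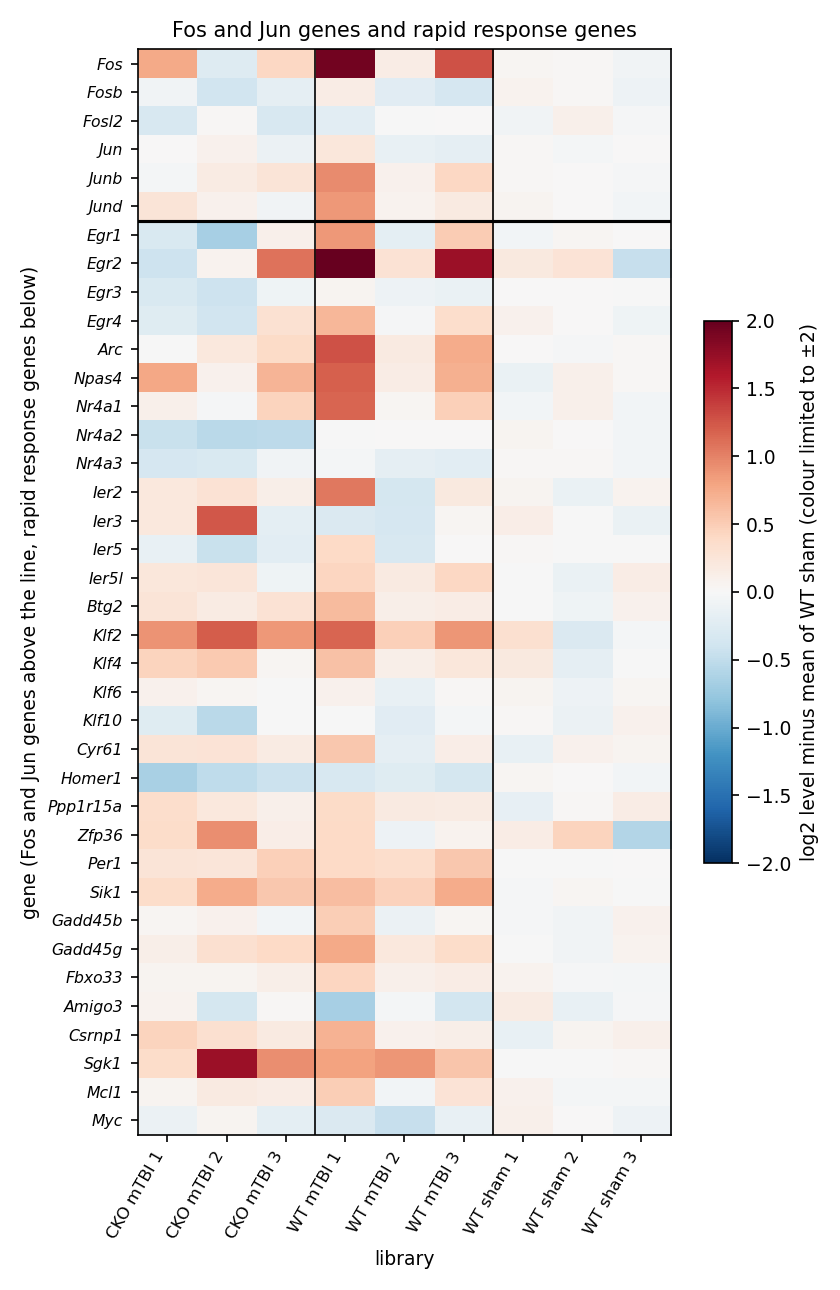
Colours give the log2 level of each gene minus its mean in WT sham, limited to ±2, for the 6 Fos and Jun genes above the line and 32 rapid response genes below it (rows) in the 9 libraries (columns). Fos, Junb, Arc, Egr1, Egr2 and Nr4a1 are reddest in WT mTBI replicate 1, then replicate 3, and closest to the sham level in replicate 2.

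Genes that act on the members' promoters were listed next. SRF, with its partner factors, drives Fos through the serum response element, and Srf itself had 46.7, 47.2 and 48.1 CPM in WT mTBI, against 41.2, 42.6 and 41.4 CPM in WT sham. The groups did not overlap, and unlike Fos the 3 WT mTBI libraries were alike (log2 0.18, SE 0.06, unadjusted p = 0.0159, adjusted p = 0.26 in edgeR). In CKO mTBI, Srf had 43.0, 41.7 and 42.2 CPM, all below WT mTBI (log2 -0.16, SE 0.06, adjusted p = 0.732). None of the 15 promoter-binding factors passed in either comparison, with medians of log2 0.10 in CKO mTBI against WT mTBI and -0.07 in WT mTBI against WT sham. Mef2c, a neuronal activity factor, was at log2 -0.20 in CKO mTBI against WT mTBI, and the SRF partner gene Elk1 at -0.21 in WT mTBI against WT sham.

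Kinases and phosphatases upstream of AP-1 comprised 27 genes, none of which passed in any comparison. Dusp1, a phosphatase that switches off MAP kinases and is itself an early gene, had 26.1, 13.7 and 15.4 CPM in WT mTBI, against 13.6, 9.21 and 11.8 CPM in WT sham (log2 0.67, adjusted p = 0.237). Dusp4, of the same family, was at log2 -0.29 and the ERK activator Map2k2 at 0.30 (adjusted p = 0.229 and 0.241). In CKO mTBI against WT mTBI, Map2k2 was at log2 -0.27, the ERK phosphatase Dusp6 at -0.27 and the kinase Rps6ka1 at 0.32 (adjusted p = 0.732 each). Among 7 genes that act on the stability of AP-1 proteins, none passed in any comparison, and the medians were log2 -0.08 in CKO mTBI against WT mTBI and 0.07 in WT mTBI against WT sham.

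Other factors of the leucine zipper class can pair or compete with Fos and Jun proteins. Of 18 listed, 16 were tested and none passed in any comparison. The smallest p in WT mTBI against WT sham was that of the small Maf gene Mafk (log2 0.22, adjusted p = 0.403), and in CKO mTBI against WT mTBI that of Mafg (log2 -0.13, adjusted p = 0.739). In CKO mTBI against WT sham, Mafk was at log2 0.32 (adjusted p = 0.446) and Maff at 0.83 (adjusted p = 0.717). The largest change in CKO mTBI against WT mTBI was that of Batf, at log2 0.80 with an SE of 0.63 and under 1 CPM in each group. The medians were log2 -0.02 in CKO mTBI against WT mTBI and 0.04 in WT mTBI against WT sham.

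Of 20 genes known as AP-1 targets or effectors, 19 were tested and none passed in any comparison. Sprr1a, known from regenerating neurons, had 0 counts in all libraries and was not tested. Nptx2, a secreted pentraxin that clusters AMPA receptors, had 20.2, 12.8 and 16.1 CPM in CKO mTBI, against 27.2, 20.2 and 24.6 CPM in WT mTBI, with 1 knockout library within the wild-type range (log2 -0.55, SE 0.16, unadjusted p = 0.00507, adjusted p = 0.732 in edgeR). Gap43, a growth cone protein, was at log2 -0.24 and Rgs2, a brake on G protein signalling, at -0.31 in the same comparison, while the growth factor gene Fgf2 was at 0.33 and the metalloproteinase gene Mmp3, under 1 CPM in each group, at 1.77 (adjusted p = 0.732 each). At an unadjusted p under 0.05 in edgeR, 3 of the 19 were lower there, against 3.35% of all genes. The 2 higher ones were Fgf2 and Mmp3, and the share of all genes that were higher was not taken. In WT mTBI against WT sham, the neurotrophin gene Bdnf averaged 31.6 CPM in WT mTBI and 41.4 CPM in WT sham (log2 -0.39, adjusted p = 0.265). The metalloproteinase inhibitor gene Timp1 was at log2 -1.07 (adjusted p = 0.283) and the neuropeptide gene Gal at 0.90 (adjusted p = 0.343), both below 2 CPM.

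Heat shock genes, which warm enzymatic dissociation is known to induce along with Fos and Jun, were listed for that reason. None of the 12 passed in any comparison. Their summed level was 4451 to 5552 CPM in CKO mTBI, 4714 to 5853 CPM in WT mTBI and 4970 to 5108 CPM in WT sham. In WT sham, Hsp90ab1, Hspa8 and Hsp90aa1 averaged 1795, 1442 and 753 CPM. The sum thus says little about genes of low level such as Hspa1a and Hspa1b. The highest sum was that of WT mTBI replicate 1, where the list had a median of log2 0.29 over the sham mean. Hspa1b, the inducible Hsp70 gene, had 11.3, 17.4 and 12.1 CPM in WT mTBI, against 17.4, 18.1 and 17.0 CPM in WT sham. Replicate 1 was its lowest WT mTBI library. In CKO mTBI, Hspa1b had 9.8, 25.4 and 9.2 CPM. Its near-identical copy Hspa1a had 5.70, 3.95 and 3.84 CPM in WT mTBI, against 4.39, 5.82 and 4.03 CPM in WT sham, and the co-chaperone gene Dnajb1 53.0, 43.3 and 47.1 CPM in WT mTBI, against 40.3, 44.8 and 43.7 CPM in WT sham. Both were highest in replicate 1 of the WT mTBI libraries, and reads of Hspa1a and Hspa1b cannot be fully told apart. The part of dissociation in the levels of the members was not tested.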

How the data were processed

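RNA from sorted tdTomato-positive hippocampal cells was sequenced in 9 libraries. The deposited table holds whole-number counts per gene, made by the authors with featureCounts 2.0.6 on Ensembl release 98 (GRCm38), per the file headers, with paired reads counted as up to 2 reads per pair and no strand option. Trimming with Trim Galore, alignment software HISAT2 and quality reports by FastQC and MultiQC are named in the submitters' processing notes, with SAMtools. The aligner's version is not given in the sources used here.

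From these counts, edgeR 4.0.16 (R 4.3.3) fitted 20032 genes left by its filter on low counts, over all 9 libraries with TMM scaling and the quasi-likelihood test, with Benjamini-Hochberg adjustment over all genes and a threshold of 0.05. Depth was 36452443 to 39590872 counts per library. The labels call the libraries separate mice, and p-values measure only the spread between them. With 3 against 3 libraries an exact permutation test of a single gene cannot go below p = 0.1, so none was used for the comparisons. Exon lengths came from GENCODE annotation of GRCm38, to which 55240 of 55421 genes matched.

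The members and gene lists were chosen with earlier results of these data known. Named beside the members were the deleted gene, genes of each list that passed, up to 4 of smallest p per list in either comparison with WT mTBI, and the 3 genes most like each member. A few others (Hspa1a, Hspa1b, Dnajb1, Nr4a1, Egr2, Fgf2, Batf, Maff) were chosen after their values were seen. Alternatives were RLE size factors, no composition scaling, DESeq2 1.42.0, limma 3.58.1 voom with quality weights, other filters, the 6 libraries compared, a replicate block, counts divided by 2, summed sham libraries and left-out libraries. The scripts were tested on simulated data.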

Additional observations from a re-analysis of the deposited data

How the results depend on the processing

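Over 20 alternatives, 351 of 360 log2 changes of the members kept their direction. The 9 that turned were small. Fosb in CKO mTBI against WT mTBI was at 0.063 under voom and ran from -0.18 to 0.0703 with a library left out. Jun, with a library left out, ran from -0.048 to 0.16 in CKO mTBI against WT mTBI, from -0.16 to 0.043 in WT mTBI against WT sham and from -0.053 to 0.048 in CKO mTBI against WT sham. No member passed under any alternative in the comparisons of CKO mTBI. In WT mTBI against WT sham, 1 member passed with DESeq2 (Fos) and 2 with no count filter (Fos, adjusted p = 0.000423, and Junb, adjusted p = 0.0125), and 0 to 1 with a library left out. Over its alternatives the Fos change there ran from log2 0.79 (voom) to 1.65, with adjusted p from 0.000423 to 1.

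Counts over all genes moved more. In CKO mTBI against WT mTBI they were 3, against 18 with DESeq2, 68 with no filter, 1 with the 6 libraries compared, 24 without WT mTBI replicate 1 and CKO mTBI replicate 1 together, 1 with sham summed and 2 to 7 with a library left out. In WT mTBI against WT sham they were 102, against 536 with DESeq2, 722 with voom, 676 with no filter, 64 with the stricter filter, 253 with 6 libraries, 523 without those 2 libraries, 1 with sham summed and 5 to 252 with a library left out. In CKO mTBI against WT sham they were 14, against 223, 279 and 387 with DESeq2, voom and no filter, 71 with 6 libraries, 337 without those 2 libraries, 0 with sham summed and 2 to 128 with a library left out. The cause was not tested, except that summing sham leaves 1 sham sample.

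Samples share only a replicate number: deviations of same-numbered libraries correlated at -0.0907 to 0.0743. With the replicate block 3, 107 and 13 genes passed in the 3 comparisons and 0 members. Fosl1, with at most 8 counts in a library, was left out by the filter on low counts.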

Other observations

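Among the rapid primary response genes, 2 of 32 passed in CKO mTBI against WT sham, both lower, where 0.0699% of all genes passed. With the sham libraries summed to 1 sample, 0 genes passed in this comparison, so both calls are lost. Nr4a2, an orphan nuclear receptor gene, had 39.4, 37.2 and 37.5 CPM in CKO mTBI, against 55.7, 54.2 and 51.8 CPM in WT sham (log2 -0.50, adjusted p = 0.0214 in edgeR). WT mTBI libraries were at 53.4, 53.9 and 54.1 CPM, and CKO mTBI against WT mTBI gave log2 -0.50 (adjusted p = 0.0575). Homer1, a postsynaptic scaffold gene with a short early form, had 75.3, 83.2 and 87.7 CPM in CKO mTBI, against 121, 119 and 114 CPM in WT sham (log2 -0.53, adjusted p = 0.0299). Its WT mTBI libraries were at 95.03, 99.6 and 92.9 CPM, also all below those of WT sham (log2 -0.30, adjusted p = 0.108). Neither gene followed the library order of Fos, Junb and Arc in WT mTBI. Per1, a clock gene, had 97.5, 95.1 and 108 CPM in WT mTBI, against 73.7, 74.1 and 75.0 CPM in WT sham (log2 0.43, adjusted p = 0.0514). In CKO mTBI, Per1 had 88.7, 87.5 and 103 CPM (log2 0.33 against WT sham, adjusted p = 0.233 in edgeR).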
